A study of Mus musculus with 14 samples.

Results

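The CHD proteins are ATP-dependent chromatin remodellers, and the 8 genes described here were chosen by name (Chd1, Chd2, Chd3, Chd4, Chd6, Chd7, Chd8 and Chd9) out of 52459 genes in the count tables. All 8 were measured in the 6 libraries of a transcription-arrest experiment, and all 8 passed the filter on low values, a mean of at least 1 FPKM at 0 h. FPKM, counts scaled to the depth of the library and the length of the exons, is used for every comparison of levels between genes. The samples were E14Tg2a mouse embryonic stem cells (mESCs), either wild type (WT) or carrying METTL14 R255K, a knock-in made with CRISPR-Cas9 that replaces an arginine of METTL14 with lysine. METTL14 is the RNA-binding partner of METTL3 in the enzyme that writes N6-methyladenosine (m6A) on mRNA. The R255K cells are a single line, so an effect of the substitution and a feature of that line cannot be told apart. Cells of both genotypes received 5 µg/ml actinomycin D, which blocks transcription, and were harvested at 0, 4 and 8 h, with 1 library per genotype and time. No replicate check exists for these libraries, no p-value is given, and each 95% interval from their counts covers counting error only. A second experiment, MeRIP-seq, had 2 IP and 2 input libraries per genotype, from which the authors deposited 1 list of m6A peaks for each genotype.

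CHD proteins share a pair of chromodomains, which bind histone tails, and a Snf2-type ATPase motor that slides, spaces or evicts nucleosomes. Chd1 and Chd2 travel with elongating RNA polymerase, Chd3 and Chd4 are alternative motors of the NuRD histone deacetylase complex, and Chd6 to Chd9 carry additional BRK domains and include the genes altered in CHARGE syndrome (Chd7) and in a form of autism (Chd8). In embryonic stem cells Chd1 is known for keeping chromatin open and Chd4 for restraining genes of differentiation. An m6A mark, placed mostly in long exons and near stop codons, is known to recruit reader proteins that shorten the life of many mRNAs.

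The sites that the m6A peaks point to are shown first. For each gene with a peak, the site is the GGAC nearest to the summit of its strongest WT peak, and the 4 further sites belong to the WT peaks on these genes that no R255K peak overlapped. The capitals mark the motif, GGAC, or, where the gene strand held none within 100 bp of the summit, the nearest of GAAC, AGAC and AAAC. The third letter of the capitals is the adenosine that could carry the mark, which MeRIP-seq does not resolve. Sequences are from the mm10 genome (GRCm38), written 5′ to 3′ on the strand of the gene.
Chd1, chr17:15770337-15770364, plus strand: gtttgtcttccgGGACtttgttttagcc
Chd2, chr7:73429279-73429306, minus strand: caaggacctgctGGACagtgtgtgattg
Chd4, chr6:125130115-125130142, plus strand: tgagttgtaaagGAACagccctgcgcag
Chd6, chr2:160949996-160950023, minus strand: gattgcgggaatGGACctggtaggattg
Chd7, chr4:8866535-8866562, plus strand: cgaggagaacctGGACaagactgtagag
Chd8, chr14:52237446-52237473, minus strand: gaagaagcacttGGACtgccaagctctc
Chd9, chr8:91051536-91051563, plus strand: gaaaaaaagaaaGGACagagagccaaag
Chd7 peak without R255K overlap, chr4:8751774-8751801, plus strand: cagcgcccccggGAACggattggcgtct
Chd8 peak without R255K overlap, chr14:52232697-52232724, minus strand: caggggcgagcaAAACatacctcgagtc
Chd9 weaker peak without R255K overlap, chr8:90997242-90997269, plus strand: tccaaaggagctGGACaaacaaatgtac
Chd9 stronger peak without R255K overlap, chr8:91033555-91033582, plus strand: atggggtcagccGGACcgactaccacat
Of these 11 sites, the 6 strongest-peak sites outside Chd4 read GGAC, while 2 of the 4 sites without R255K overlap had no GGAC in the window. Over all 19 WT peaks on these genes, 15 had a GGAC within 100 bp of the summit on the strand of the gene, against 78.9% of all exonic WT peaks.

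The libraries held between 13812160 and 18813640 counts. One count row needs a caution before its values are read. In the count tables the exons named Chd1 include 10 exons at chr17:17374332-17394898, all within exons of Riok2, a gene for an atypical kinase of ribosome assembly, and no row carries the name Riok2. These exons are 3196 of the 11917 bp of the row (26.8%), so reads of Chd1 and of Riok2 cannot be told apart there, and every Chd1 level, ratio and half-life below is that of the joint row. The peaks were placed on the exons of GENCODE vM21 instead, which keep both genes apart. Exons of Chd2 overlap over 2628 bp (18.4%) with 1810026B05Rik, a noncoding RNA on the same strand, whose own row held 343, 72 and 67 counts in the WT libraries of 0, 4 and 8 h and 135, 81 and 50 in those of R255K cells. Mettl14 itself went from 681 over 376 to 232 counts in WT cells, and from 299 over 280 to 209 in R255K cells. A substitution leaves the transcript in place, so these counts do not check the labels. The summed level of 8 stem cell markers was 2795 to 5177 CPM (counts scaled to depth alone) and that of 6 fibroblast markers 834 to 1175 CPM, nearly all of it from Fn1 (662 to 808) and Vim (128 to 403), while the collagen genes Col1a2 and Col3a1 reached at most 7.60 and 1.01 CPM and Col3a1 was at 0 in 1 library.

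At 0 h in WT cells Chd4 was by far the most abundant of the family per length. Its level was 104 FPKM, followed by the Chd1 row at 20.7, Chd8 at 12.9, Chd2 at 11.7, Chd7 at 7.57, Chd9 at 5.40, Chd6 at 4.00 and Chd3 at 2.11. The order in R255K cells at 0 h was Chd4 at 121 FPKM, the Chd1 row at 15.2, Chd8 at 12.6, Chd7 at 7.51, Chd3 at 5.32, Chd2 at 3.68, Chd6 at 2.70 and Chd9 at 1.97. Chd2 and Chd9 therefore stood lower and Chd3 higher in the order of the R255K library, whereas Chd4, the Chd1 row and Chd8 led in both. Since there was 1 library per group, the spread between libraries of 1 genotype, and hence which neighbours in these orders differ beyond it, is unknown. In bulk RNA such as this, fewer cells that express a gene and less of its RNA per cell cannot be told apart.

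**Figure D1:**
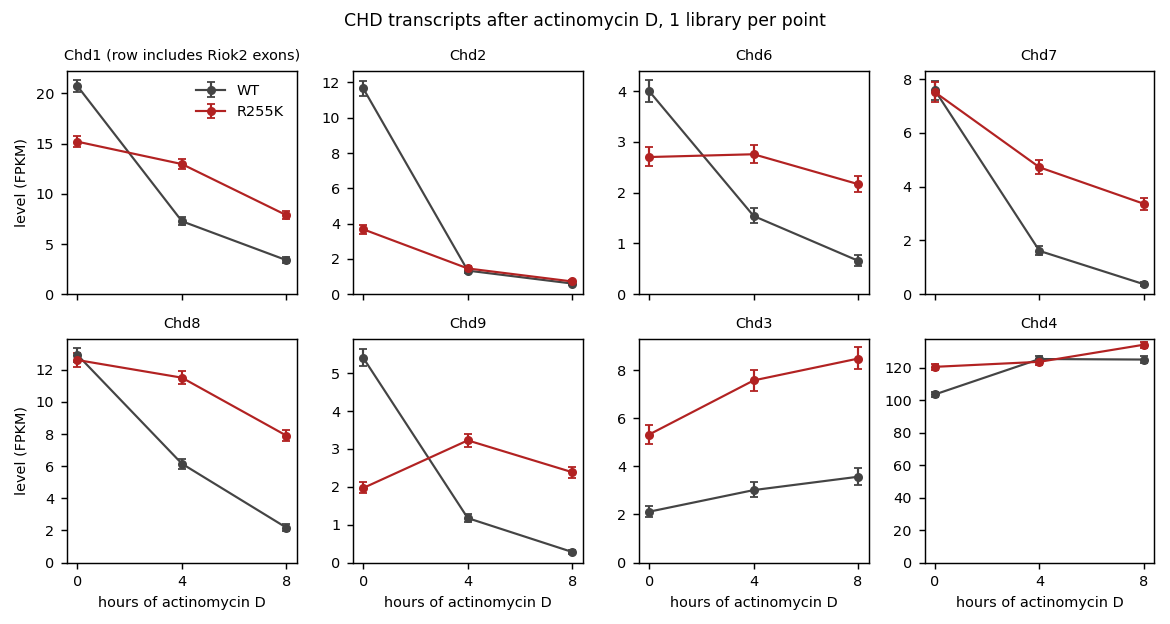
Level in FPKM of each CHD transcript (y axis, from 0) against hours of actinomycin D (x axis) in WT (grey) and R255K (red) cells, 1 library per point, bars being 95% Poisson intervals of the counts. In WT cells 6 transcripts dropped steeply and Chd3 and Chd4 did not. At 8 h the R255K point lay above the WT point for every transcript, with overlapping intervals for Chd2.

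After transcription was blocked the 8 genes split, in WT cells, into a short-lived group of 6 and a stable pair. At 8 h the WT level of the Chd1 row, Chd2, Chd6, Chd7, Chd8 and Chd9 was under 50% of its 0 h level, while 43.4% of all 11847 genes compared were under 50%. The median over the 8 CHD genes was 16.4% of the 0 h CPM, against 64.2% over all genes. In R255K cells 2 of the 8 (Chd2 and Chd7) were under 50% at 8 h, against 22.6% of all genes, and the medians were 71.5% and 92.0%. These percentages are relative to the summed counts of each library, with no external standard, so a transcript that decays more slowly than the bulk of the RNA can exceed 100%.

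Chd3 and Chd4, the NuRD motors, showed no decay relative to the summed counts in either genotype. With ribosomal protein genes as the reference, Chd4 had 72.7% left at 8 h in WT and 96.2% in R255K cells, and with Gapdh Chd4 had 40.4% and 23.6% and Chd3 56.5% and 33.8%. For Chd4 the WT libraries of 0, 4 and 8 h held 14474, 15062 and 13849 counts, the R255K libraries 15121, 18440 and 20244. Its level at 8 h was 121% of that at 0 h in WT (95% interval 118 to 124) and 111% in R255K cells (109 to 114), and the ratio of R255K to WT was 1.16, 0.986 and 1.07 at the 3 times. By summed counts Chd4 was the family member closest to equal levels at 4 and 8 h, and by TMM and DESeq2 size factors Chd2 was. For Chd3 the WT counts were 311, 381 and 416, the R255K counts 703, 1189 and 1347. By summed counts it was higher in the R255K library at every time, by 2.52-fold at 0 h, 2.51-fold (2.24 to 2.82) at 4 h and 2.38-fold at 8 h. Its time course then ran in parallel in both genotypes, with 169% and 159% of the 0 h CPM left at 8 h. With the GC trend removed these were 169% and 179%. They lay further apart by DESeq2 size factors (275% and 185%), with the trend by exon length removed (169% and 107%) and by ribosomal protein genes (102% and 138%). With Gapdh taken as constant its ratio at 4 h was 0.960. Chd3 lies on chromosome 11, where the median log2 ratio of 984 genes was 0.53, 0.58 and 0.71 at 0, 4 and 8 h, against 0.05, 0.18 and 0.33 over all genes (log2 of FPKM + 1). The part of that shift in the Chd3 difference was not tested. Its antisense neighbour Chd3os, counted at 82, 64 and 87 against 126, 188 and 195, had ratios of 1.71, 2.37 and 1.65.

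Chd1 and Chd2, the remodellers of transcribed genes, both dropped quickly in WT cells. The Chd1 row held 4303, 1298 and 559 WT counts at 0, 4 and 8 h, and 2831, 2872 and 1765 R255K counts. By summed counts it started lower in the R255K library (ratio 0.733, 0.699 to 0.769) and ended higher, with ratios of 1.78 at 4 h and 2.32 (2.11 to 2.55) at 8 h. The 0 h ratio was 0.658 to 0.711 by TMM, DESeq2 size factors and ribosomal protein genes. It was 1.03 with the trend by GC content removed, 1.05 with that by exon length removed and 1.98 with Gapdh taken as constant. The Chd2 row held 2905, 287 and 120 WT counts, and 823, 389 and 195 R255K counts. Nearly all of its difference lay at 0 h, where the R255K library had 0.316 of the WT CPM (0.292 to 0.341), and at 4 and 8 h the ratios were 1.09 and 1.19, with intervals that include 1. At 8 h Chd2 had 5.21% of its 0 h level left in WT cells, beside 4.92% for Chd7 and 5.15% for Chd9, and 19.7% in R255K cells, the least of the family there.

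Chd6, Chd7, Chd8 and Chd9, the members with BRK domains, held more of their RNA in the R255K libraries at 4 and 8 h. Reads of Chd7 numbered 1820, 333 and 71 in the WT libraries, and 1619, 1210 and 872 in the R255K libraries. Both libraries began alike (ratio 0.991, 0.927 to 1.06), and the ratio then reached 2.93 at 4 h and 9.02 (7.08 to 11.5) at 8 h, the highest of the family. Those of Chd8 numbered 3626, 1484 and 483, and 3174, 3445 and 2393. It likewise began at a ratio of 0.975 (0.930 to 1.02) and ended at 3.64 (3.30 to 4.01). For Chd7 and Chd8, then, both genotypes started from about the same level at 0 h by summed counts and stood apart at 4 and 8 h. Their 0 h ratios were 1.51 and 1.60 with the trend by exon length removed, and 2.67 and 2.63 with Gapdh taken as constant.

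By summed counts Chd6 and Chd9 began lower in the R255K library. The WT counts of Chd6 were 1331, 441 and 174 and its R255K counts 807, 979 and 779, with ratios of 0.676 at 0 h, 1.79 at 4 h and 3.29 (2.79 to 3.87) at 8 h. The WT counts of Chd9 were 2180, 407 and 89 and its R255K counts 713, 1389 and 1039. Its ratio went from 0.364 (0.335 to 0.397) at 0 h to 2.75 at 4 h and 8.57 (6.90 to 10.6) at 8 h. The lower start of Chd6 depended on the scaling. Its 0 h ratio was 0.787 with the GC trend removed, 1.21 with the trend by exon length removed and 1.82 with Gapdh taken as constant. For Chd9 these were 0.495, 0.714 and 0.983. In R255K cells Chd9 stood at 164% of its 0 h CPM at 4 h (150 to 179) and 121% at 8 h (110 to 133), whereas in WT cells 21.7% and 5.15% were left. A transcript that gains share while transcription is blocked has no half-life by this estimate.

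**Figure D2:**
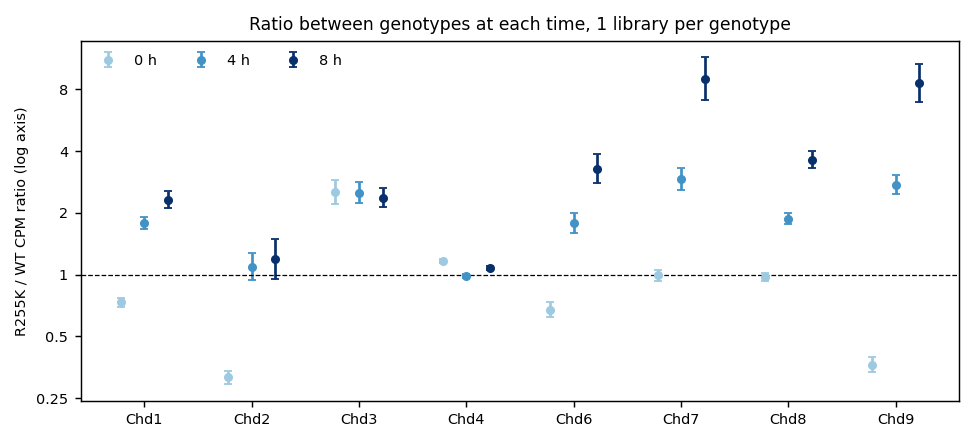
Ratio of R255K to WT CPM (y axis, log scale) for each CHD transcript at 0, 4 and 8 h (light to dark blue), 1 library per genotype and time, bars being 95% intervals of counting error. Chd7 and Chd9 reach 9.02 and 8.57 at 8 h, Chd3 stays between 2.38 and 2.52, and Chd4 stays near 1.

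At 8 h, 6 of the 8 CHD genes were more than 1.5-fold higher in R255K than in WT cells on the log2(FPKM + 1) scale, against 36.6% of all 11869 genes. These were the Chd1 row, Chd3, Chd6, Chd7, Chd8 and Chd9, and the median log2 ratio of the 8 was 1.03, against 0.33 over all genes. At 4 h the medians were 0.78 and 0.18. With the 0 h libraries, 1 of the 8 (Chd3, log2 ratio 1.02) was more than 1.5-fold higher in R255K cells, against 17.0% of all genes, and 2 (Chd2, −1.44, and Chd9, −1.11) were more than 1.5-fold lower, against 15.7%. The median log2 ratio at 0 h was −0.23 for the CHD genes and 0.05 over all genes. So the family stood below the general shift at 0 h and above it at 4 and 8 h, and the comparison at 8 h does not use the 0 h libraries. The direction at 0 h turned with the trend by exon length removed, to 0.36 for the CHD genes against 0.07 over all genes.

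**Figure D3:**
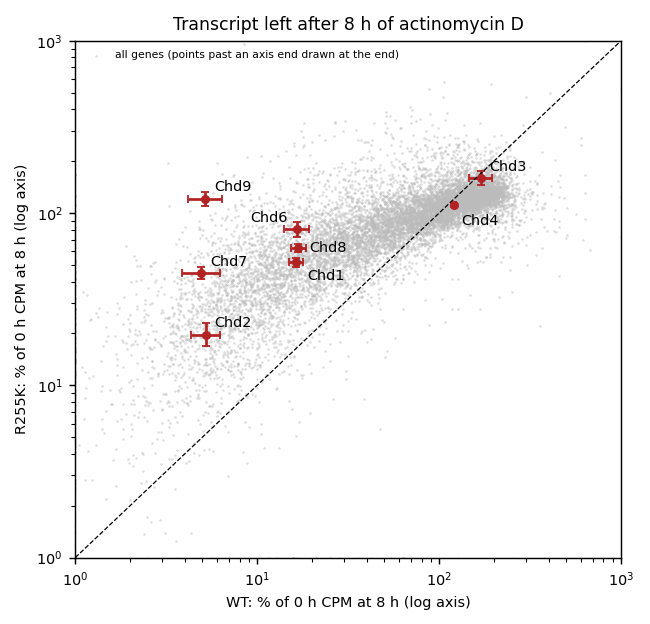
Percent of the 0 h CPM left after 8 h in WT (x axis, log scale) and R255K cells (y axis, log scale), grey points being 11847 genes and red points the CHD genes with 95% intervals of counting error, and the dashed line marking equality. The Chd1 row, Chd2, Chd6, Chd7, Chd8 and Chd9 lie above the line and to the left, at 4.92% to 16.8% in WT, and Chd3 and Chd4 lie at its upper end.

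Half-lives restate the time courses in hours, from the mean of the decay rates over 0 to 4 h and 0 to 8 h. In WT cells they were 1.52 h for Chd2, 1.82 h for Chd7, 1.84 h for Chd9, 2.84 h for the Chd1 row, 2.99 h for Chd6 and 3.39 h for Chd8. The intervals of Chd7 (1.72 to 1.93 h) and Chd9 (1.75 to 1.94 h) overlapped, as did those of the Chd1 row and Chd6 and those of Chd6 and Chd8, and the interval of Chd2 (1.46 to 1.59 h) lay below all others. In R255K cells the half-lives were 3.20 h for Chd2, 6.40 h for Chd7, 11.4 h for the Chd1 row and 17.1 h for Chd8. Chd6 decayed so little there that its estimate of 61.7 h has a lower bound of 25.7 h and no upper bound. Chd2, Chd7 and the Chd1 row thus came in the same order in both genotypes, Chd6 and Chd8 changed places, and Chd9 had no half-life in R255K cells, its level at 4 and 8 h lying above that at 0 h.

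The ratio of half-lives, R255K over WT, was 2.10 for Chd2 (1.90 to 2.32), 3.53 for Chd7 (3.11 to 4.00), 4.00 for the Chd1 row (3.45 to 4.65), 5.03 for Chd8 (4.09 to 6.19) and 20.6 for Chd6 (5.07 to 84.0). With the trend of the genotype ratio by GC content removed they were 1.69 for Chd2, 4.19 for Chd7, 1.83 for the Chd1 row, 2.81 for Chd8 and 5.00 for Chd6. With the trend by exon length removed, Chd2 (1.42) and Chd8 (1.34) were under 1.5, and Chd7 (1.83), the Chd1 row (1.63) and Chd6 (1.69) over it. By summed counts all 5 were over 1.5, as were 68.8% of the 5504 genes with a half-life in both genotypes, and their median was 4.00 against 1.98. When Chd9 was included as a gene with no decay from 0 h in R255K cells, 6 of 6 had slower decay, against 76.0% of the 7159 genes that decayed in WT. A longer half-life in the R255K libraries was therefore the common case over all genes, and the CHD values are to be read against it. Without the Chd1 row the median of the other 4 was 4.28.

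The 0 h R255K library had a lower level of long and of AT-rich transcripts, and the CHD transcripts are long. Their exons add up to 8019 to 23148 bp, against a median of 3738 bp over all genes, and their GC content was 42.5% to 55.6%, against a median of 49.9%. At 0 h the trend of the log2 ratio with exon length was −0.27 at the length of Chd4 and −0.97 at that of Chd9, and at 8 h it was 0.27 and 0.41. With that trend removed, an alternative added after the data were seen, the median half-life ratio was 1.66, against 1.58 over all genes. That median covers 6 CHD genes, since Chd9 then had a half-life in both genotypes. Chd9 then had 46.6% of its 0 h level left in R255K cells. The ratio at 8 h with the trend removed was 6.96 for Chd7, 6.46 for Chd9, 2.79 for Chd8, 2.50 for Chd6 and 1.81 for the Chd1 row. From 4 to 8 h alone, without the 0 h libraries, the half-life ratio was 4.77 for Chd9, which decayed in both genotypes over that interval, 4.32 for Chd7, 3.54 for Chd6, 2.77 for Chd8, 1.53 for the Chd1 row and 1.13 for Chd2. What part length has in the half-life ratios was not tested further.

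**Figure D4:**
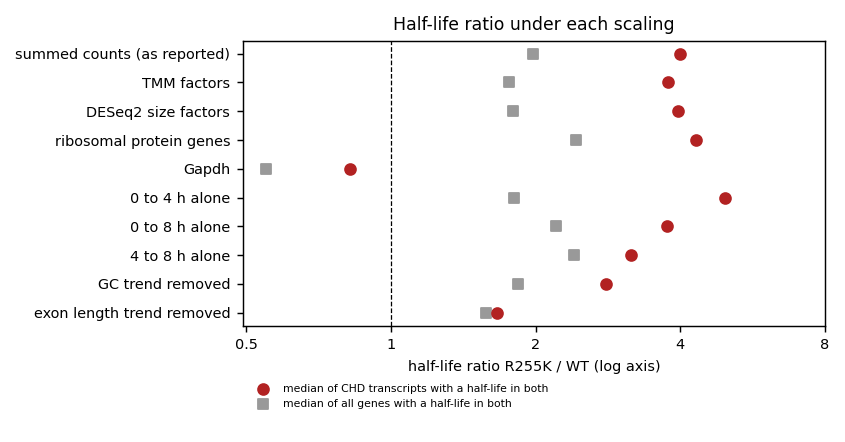
Median half-life ratio, R255K over WT (x axis, log scale), of the CHD transcripts (red circles) and of all genes (grey squares) with a half-life in both genotypes, under each scaling or time interval (y axis). The CHD median lies at 4.00 as reported (5 genes), at 1.66 with the exon length trend removed (6 genes) and at 0.822 when Gapdh is taken as constant (6 genes). The genes behind the median differ between rows, so its shifts are not those of a fixed set.

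The CHD genes lie on 8 different chromosomes. In mm10 coordinates their principal transcripts span chr17:15704967-15772610 (Chd1, plus strand), chr7:73426638-73541746 (Chd2, minus), chr11:69343273-69369406 (Chd3, minus) and chr6:125095981-125130591 (Chd4, plus). Those of the others span chr2:160946978-161109022 (Chd6, minus), chr4:8691365-8867659 (Chd7, plus), chr14:52198151-52257780 (Chd8, minus) and chr8:90828352-91054516 (Chd9, plus). Each has 36 to 40 exons and a coding sequence of 5133 bp (Chd1) to 8958 bp (Chd7). Chd3 and Chd4 have the shortest mRNAs of the family after splicing (7261 and 6697 bp) and Chd9 the longest (12008 bp), and the 3′UTR ranges from 444 bp in Chd8 to 3032 bp in Chd2.

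Peaks of m6A lay on 7 of the 8 genes in both genotypes, all but Chd3, while 57.4% of all genes carried an exonic WT peak and 43.6% an exonic R255K peak. Among the 1607 genes with exons of at least 8000 bp in all, 78.0% carried an exonic WT peak. WT cells had 19 exonic peaks on the family and R255K cells 19. Over the exon length in the count tables that is 0.166 WT peaks per kb, against 0.214 over all genes. Chd6, Chd7, Chd8 and Chd9 had 4 WT peaks each, and Chd1, Chd2 and Chd4 had 1 each. The stable pair thus held 1 WT peak between them, on Chd4, and the short-lived 6 held 18. Peak number did not part the groups gene by gene, since the short-lived Chd1 and Chd2 also had 1 each. Per kb of exon in the count tables, Chd4 had 0.125 WT peaks, above Chd1 (0.0839) and Chd2 (0.0699). The row length of Chd1, 11917 bp, includes the Riok2 exons, whereas its peak was placed on exons of 8721 bp without them. The density of Chd1, and with it that of the family, is therefore somewhat too low here. In R255K cells Chd4 had 4 peaks, at 0.499 per kb the highest density of the family.

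**Figure D5:**
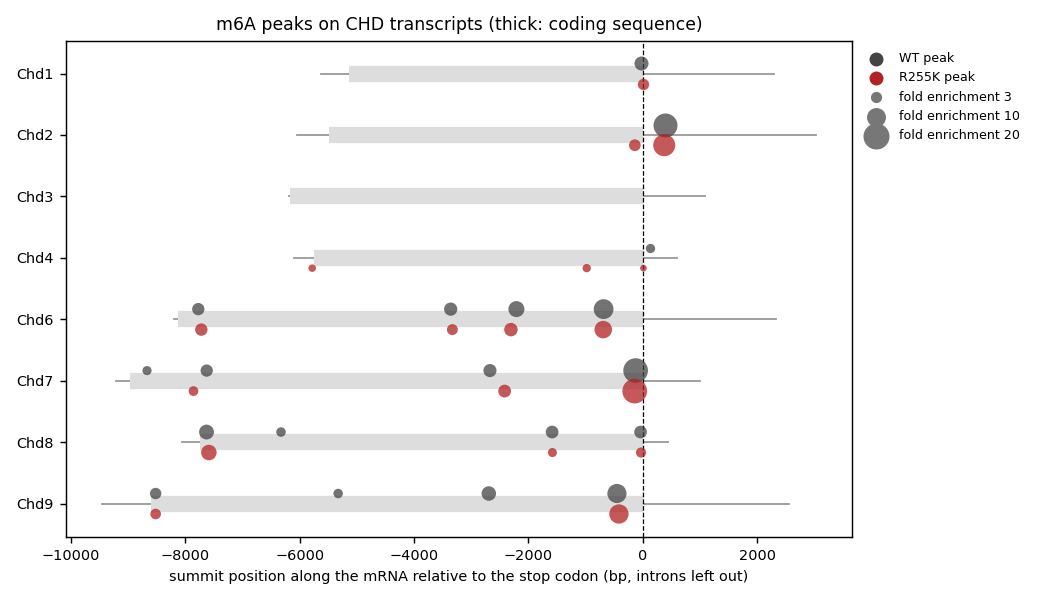
Summits of exonic m6A peaks along the mRNA of each CHD gene, in bp from the end of the coding sequence with introns left out (x axis), WT in grey above and R255K in red below each gene, point area in proportion to fold enrichment, the thick bar marking the coding sequence. The largest points lie near the stop codon of Chd2 and Chd7, Chd3 has none, and the WT points without R255K overlap are 2 on Chd9 and 1 each on Chd7 and Chd8. One R255K peak of Chd4 outside its principal transcript is not drawn.

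The coding sequence held 17 of the 19 WT summits and a 3′UTR the other two, and 17 lay in merged exons over 400 bp, against 93.7% of all exonic WT peaks. In 7 cases the exon was the last of the gene. Fold enrichment, the height of IP over local background at the summit, was highest on Chd7 (20.7, exon 38 of 38, 126 bp before the end of the coding sequence) and Chd2 (19.6, exon 39 of 39, 392 bp past it). Both summits are of the kind for which m6A is known, in a long last exon around the stop codon. Next came Chd6 (13.4, exon 37 of 37, 686 bp before the end of the coding sequence) and Chd9 (12.5, exon 40 of 40, 453 bp before it). The strongest peak of Chd8 (7.52) lay far from its stop codon, in exon 2 of 38. The single peak of Chd1 (6.72) had its summit 39 bp before the end of the coding sequence in exon 36 of 36. Chd4, with the highest level of the family, had the lowest strongest peak, 2.95, in the 3′UTR 130 bp past the end of the coding sequence and with no GGAC in the window.

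Peaks away from the last exon lay on Chd6, Chd7, Chd8 and Chd9, and each of these genes had one in its longest internal exon. Chd7 had 2 WT peaks in exon 2, its longest internal exon (1825 bp), and Chd6 had 2 in exon 31 (1572 bp). Chd9 had 1 in exon 3 (1614 bp) and Chd8 had 1 in exon 2 (1059 bp). The remaining internal ones lay in exons of 256 to 906 bp. Chd1, Chd2, Chd3 and Chd4 have no internal exon over 287 bp in their principal transcripts, and no WT peak on them lay outside a last exon.

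Of the 19 WT peaks, 4 were overlapped by no R255K peak, 21.1% (95% Wilson interval 8.51 to 43.3), against 47.9% of all exonic WT peaks. That interval takes the peaks as independent, although several share a gene and each genotype has a single list, so it is no test of the family. The median −log10 q was 50.7 for the WT peaks on the family and 24.8 for all exonic WT peaks. Their median fold enrichments were 5.86 and 6.17. Whether the lower share goes with the higher −log10 q was not tested. Chd9 had 2 of the 4 peaks without overlap, at chr8:90997021-90997361 (fold enrichment 3.06) and chr8:91033375-91033960 (7.14). The others were on Chd7, at chr4:8751351-8751874 (2.86), and on Chd8, at chr14:52232598-52232948 (3.10). The peaks without overlap were mostly low ones, with a median fold enrichment of 3.08 against 5.98 for the 15 others. The exception was the peak in exon 32 of Chd9, a 906 bp exon, whose −log10 q in WT was 50.7.

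Among the 15 overlapped WT peaks, 11 had a lower fold enrichment in the R255K list, against 70.6% of all such exonic peaks. The median ratio of R255K to WT fold enrichment was 0.784 on the family and 0.797 over all. Of the strongest peaks, some were nearly as high in both lists. That of Chd7 was 20.7 in WT and 20.8 in R255K cells, that of Chd9 12.5 and 12.7, and that of Chd8 7.52 and 8.23. Lower values in R255K cells were found on the strongest peaks of Chd2 (19.6 and 16.5) and Chd6 (13.4 and 10.5), on Chd4 (2.95 and 1.53), on the Chd1 peak (6.72 and 4.42) and on the Chd8 peak in exon 32 (5.56 and 2.81). The peaks of the family covered 12879 bp in WT and 8201 bp in R255K cells. The lists hold no value per replicate, so whether these differences exceed the spread between IP libraries cannot be told from them.

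Of the 19 R255K peaks on the family, 3 were overlapped by no WT peak, against 13.1% of all exonic R255K peaks, a share near the background. All 3 were among the 4 R255K peaks of Chd4, with fold enrichments of 3.68, 1.93 and 2.37, and 2 of them lay at the start of the gene (chr6:125096211-125096422 and chr6:125096989-125097363).

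Set side by side by the strongest WT peak of each gene, the stable pair came last, with no peak on Chd3 and 2.95 on Chd4. Chd3 also had the lowest 0 h level of the 8 in WT cells, 2.11 FPKM, and 5.32 FPKM in R255K cells. Whether a peak on it was missed for low coverage was not tested. Chd2 and Chd7, with the shortest and second shortest WT half-lives, had the highest fold enrichments, though in the reverse order (19.6 and 20.7). Chd9 (1.84 h) had 12.5, below Chd6 (2.99 h) at 13.4. Chd8, with the longest half-life of the 6, had 7.52, though the Chd1 peak was lower still at 6.72. These are 8 genes from the same libraries, so no test of that order was made.

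The partners of Chd3 and Chd4 in NuRD were mostly stable as well. Of 11 NuRD genes, all of which were measured above the filter, 2 were under 50% of the 0 h level at 8 h in WT cells and 1 in R255K cells, against 43.4% and 22.6% of all genes. Mbd2, which binds methylated DNA, had 34.4% left at 8 h in WT and 54.4% in R255K cells, and Gatad2b, a bridging subunit, had 6.98% and 19.5%. Of the 3 that decayed in WT cells, 2 had a half-life ratio over 1.5, against 68.8% over all genes, with ratios of 2.19 for Mbd2, 1.74 for Gatad2a and 1.39 for Gatad2b. At 0 h 2 were more than 1.5-fold higher in R255K cells (Mbd3, the alternative to Mbd2 in the complex, and Gatad2a) and 2 lower (the deacetylase gene Hdac2 and Gatad2b). Exonic WT peaks lay on 3 of the 11 and R255K peaks on 5, against 57.4% and 43.6% of all genes.

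Other Snf2-type ATPases, which share the motor domain with the CHD proteins, held both stable and short-lived transcripts. Of 16 listed, which include Chd5, a family member outside the 8, and Chd1l, 14 passed the filter. Chd5 had 89.4% of its 0 h level left at 8 h in WT and 103% in R255K cells. In WT cells 6 of the 14 were under 50% at 8 h, close to the 43.4% of all genes, and in R255K cells 2, against 22.6%. The median half-life ratio of the 6 with a half-life in both genotypes was 3.24, and 5 of the 6 were over 1.5, against 68.8% over all genes. The highest was Smarcad1, which has a role in heterochromatin after replication, at 5.73 (4060, 1130 and 404 WT counts, 1411, 1534 and 953 R255K counts). Ercc6, a repair factor of transcribed genes, had 4.86, Btaf1, which removes TBP from DNA, 3.62, and Rad54l2 2.85. At 0 h none was more than 1.5-fold higher in R255K cells and 7 of 14 were more than 1.5-fold lower, against 17.0% and 15.7% of all genes. Exonic WT peaks lay on 9 of the 16, near the 57.4% of all genes.

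The genes whose 6-library profile was nearest to the mean of the CHD genes were Bace1, Gpatch2, Rfx7, Sc5d and Suv39h2, by the distance between centred log2(CPM + 1) values. Their distances were 0.149 to 0.214, while those of the CHD genes themselves ran from 0.199 for Chd6 and 0.396 for the Chd1 row to 2.46 for Chd3. Rfx7, a transcription factor gene, had 1285, 425 and 170 WT counts and 834, 995 and 800 R255K counts, each close to those of Chd6. Suv39h2, a histone H3 lysine methyltransferase gene, had 650, 195 and 86, then 459, 513 and 324. The mean profile of the family is thus close to that of Chd6 and far from those of Chd2, Chd3 and Chd4.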

How the data were processed

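The authors discarded rRNA reads (Bowtie2 2.2.6), used HISAT2 for the alignment to mm10 and filtered for unique reads (Picard 2.16.0, SAMtools 0.1.09), by the submitters' processing notes and the study's methods. The deposited counts are whole numbers per gene, not normalized, with 1 library per genotype and time. The counting tool and its annotation are not given in the sources used here. The deposited peak lists come from MACS2, with the fold enrichment (a ratio over local background) and the deposited −log10 q at each summit. How libraries were combined is not stated there, so the depth behind the peaks is unknown.

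CPM and FPKM were computed from summed counts and the exon length in the tables. Decay rates were the mean of the rates over 0 to 4 h and 0 to 8 h, and half-lives were taken where the rate was above 0. Genes needed a mean of 1 FPKM at 0 h, a floor of 3 counts applied at 4 and 8 h, and 1 was added to FPKM before log2 ratios were taken. Intervals (95%) come from Poisson counts, and that of the share of lost peaks from the Wilson formula. A peak was on a gene if it overlapped an exon by 1 bp, by GENCODE vM21 for the CHD genes and by the exons of the count tables for all others, and positions in mRNAs refer to the longest principal transcript. The estimate was checked before use on simulated Poisson counts in which every transcript decayed and no trend by length or GC content was present. That check cannot show a bias from scaling to summed counts or from such trends. TMM factors came from edgeR 4.0.16 and size factors from DESeq2 1.42.0, which gave no other value. Other tools were Python 3.11.15, pandas 2.3.3, numpy 2.4.6, scipy 1.17.1, statsmodels 0.14.6 (lowess, span 0.3), pysam 0.24.0 and matplotlib 3.10.9.

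The CHD genes, the comparison lists and the tests were chosen with earlier results of these data known. The text names all 8 CHD genes, of each list up to 4 genes with the largest half-life ratio, Mettl14, the 5 nearest profiles, the strongest WT peak of each gene and every lost peak. Genes named beyond that (Mbd3, Hdac2, Chd5, Chd1l, Atrx, Hltf, Riok2, 1810026B05Rik, Chd3os, Gapdh, Gm6658 and further peaks) were chosen after their values were seen. Protein sequences were not used here.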

Additional observations from a re-analysis of the deposited data

Results flagged for a closer look

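From 0 to 4 h the share of Chd9 dropped in WT and went up in R255K cells, and from 4 to 8 h it dropped in both. In WT cells 21.7% and 5.15% of the 0 h CPM were left at 4 and 8 h, and in R255K cells 164% and 121%. The difference was not tested, with 1 library per point, and it rests on the 713 counts of the R255K 0 h library. With the trend by GC content removed Chd9 stood at 85.7% at 8 h in R255K cells, and with the trend by exon length removed at 46.6%. This course was not particular to Chd9. Among the other Snf2-type ATPases, Atrx and Hltf also dropped in WT and went up in R255K cells. At 8 h they had 35.2% and 51.5% left in WT and 176% and 216% in R255K cells. The medians of that list were 52.4% in WT and 114% in R255K cells.

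A pair of WT peaks in an intron of Chd9, outside the exonic comparison, had fold enrichments of 6.65 (chr8:90906811-90907042) and 6.90 (chr8:90907539-90907858). No R255K peak overlapped either. Both lie on exons of the predicted gene Gm6658, for which 37, 6 and 3 counts were listed in WT and 20, 7 and 1 in R255K cells.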

How the results depend on the processing

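With Gapdh taken as constant, 1 of 6 CHD genes had a half-life ratio over 1.5, against 2.29% of all genes. The median was 0.822 (0.549 over all genes), and the ratios of the Chd1 row (0.632), Chd2 (0.913), Chd6 (0.731) and Chd8 (0.513) turned below 1. Gapdh itself had 57.1, 16.2 and 171 CPM in WT and 21.2, 42.3 and 99.7 in R255K cells. With the exon length trend removed, chosen after seeing the data, the median was 1.66, against 1.58 over all genes. Of the CHD genes 4 of 6 were then over 1.5, against 53.6% of all genes. The median 0 h log2 ratio turned to 0.36, against 0.07 over all genes. TMM, DESeq2 size factors, ribosomal protein genes, single time intervals and GC correction gave medians of 2.81 to 4.97, against 1.76 to 2.43 over all genes. The medians cover 4 to 6 CHD genes, and the set changes with the setting. Chd6 had no half-life ratio by DESeq2 size factors and from 0 to 4 h. Chd9 had one by Gapdh, by length correction and from 4 to 8 h, and Chd4 by ribosomal protein genes. The 8 h ratio was over 1.5 in 6 of 8 genes by summed counts, TMM, DESeq2, GC and length correction, 7 by ribosomal protein genes and 8 by Gapdh, and Chd2 and Chd4 turned below 1 by TMM, DESeq2 and length correction. No share over all genes was computed for these 8 h counts under each scaling, so they do not set the family apart. At a fold enrichment of at least 4 in both lists, WT cells had 15 exonic peaks, R255K cells had 11, and 5 were lost. Counted as lost when R255K peaks covered under 50% of them, 9 WT peaks were lost, and of WT peaks of at least 4-fold enrichment 1 was overlapped by no R255K peak of any height, an alternative added after the data were seen. On the exons of the count tables, a further addition, 20 WT peaks were counted and 5 lost. No share over all exonic peaks was computed at these settings. The 47.9% found by 1 bp of overlap is no background for these counts. No paired analysis over replicates was possible because the count libraries are single and the peak lists hold no value per replicate. The genotypes share their time points, but these are different conditions and were not used as pairs. Depth limits Chd7 and Chd9 in WT cells at 8 h, with 71 and 89 counts.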
